A study of Mus musculus with 14 samples.

Results

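The comparison described here is the effect of the DOT1L inhibitor SGC0946 on mouse CD4+ T cells that stayed negative for an interferon-gamma reporter (YFPneg cells) under Th1 culture. It comprised 5 of the 14 RNA sequencing libraries of the study, chosen by their labels alone: YFPneg cells cultured with SGC0946 (n = 3) and YFPneg cells cultured with SGC0649, its inactive control compound (n = 2). All 14 libraries entered the fit, so the other 9 (naive cells and reporter-positive, YFPpos, cells with each compound) contributed to the estimate of spread. The mice carried the IFN-g-YFP reporter on a C57BL/6 background. CD4+ T cells enriched from spleen and peripheral lymph nodes, and not sorted for a naive phenotype, were cultured for 4 days with antibodies to CD3 and CD28 bound to the plate at 1 µg/ml of each, the cytokines IL-2 and IL-12 (10 ng/ml of each), and 10 µg/ml of an antibody to IL4. Either compound was present at 1 µM. Both groups therefore shared the reporter, the activation and the Th1 cytokines, and differed by compound. Cells were sorted after the culture, so the compound could also change which cells were gated as negative, which was not tested. The design calls the replicates biological, but nothing states whether each came from its own animal. P-values therefore measure a spread between samples, estimated over all 14 libraries. A vehicle culture, and YFPneg cells of the third SGC0649 number, were not analysed here.

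DOT1L is the histone methyltransferase that places methyl groups on lysine 79 of histone H3, a mark found over the bodies of transcribed genes, and it acts with elongation partners such as AF9, AF10 and ENL. Th1 cells are the helper T cells that make interferon-gamma under the control of the transcription factor T-bet, encoded by Tbx21. In a reporter culture the negative fraction holds activated cells that are not making, or have not yet made, enough of the cytokine to be gated as positive. Histone methylation was not among the measurements analysed here.

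The 5 libraries held 14486577 to 19688884 counts, with 63.6% to 65.2% of reads assigned to genes and 3.14% to 4.62% unmapped. The SGC0946 replicate 3 library stood apart from the other 4. It had the smallest total, took the extreme place on the first principal component of the 5 libraries (41.7% of the variance), and its log2 ratios to replicates 1 and 2 had SDs of 0.86 and 0.84 across genes, against 0.58 between replicates 1 and 2. The counts over all genes and those of some lists are therefore given with and without it. Other list counts are given only with it. The same SD was 0.57 between the SGC0649 YFPneg libraries. Between YFPpos replicates, which also entered the estimate of spread, it was only 0.24 to 0.39. The shared estimate may therefore be too small for YFPneg cells. The label of CD4+ T cells fitted the defining markers: Cd4 had 551, 571 and 577 CPM (counts per 1000000, scaled by TMM factors) with SGC0946 and 524 and 513 CPM with SGC0649, and none of 17 T cell identity genes passed the edgeR test in either direction (4 had an unadjusted p under 0.05, and DESeq2 called 2). Leaving out SGC0946 replicate 3 gave 1 higher and 1 lower of the 17. Cd8a lay between 0.1248 and 2.44 CPM with SGC0946 and between 0.305 and 0.565 CPM with SGC0649. The 2 CD8 markers together summed to 12.2 to 19.7 CPM with SGC0946 and 6.502 to 9.51 CPM with SGC0649, and Cd8b1 was called higher (log2 fold change 0.84, adjusted p = 0.026, or 0.17 without SGC0649 replicate 1). None of the 12 tested myeloid and dendritic cell, 4 B cell, 5 NK cell, 3 neutrophil and mast cell, 5 stromal and endothelial or 2 erythroid and platelet markers passed the edgeR test. Of these 31 genes 8 had an unadjusted p under 0.05, and DESeq2 called 2. Over all 12343 genes tested, 3301 had an unadjusted p under 0.05 and DESeq2 called 1615, the background for such counts here and below. Ly6g, a neutrophil marker, had 64.2, 74.2 and 33.8 CPM with SGC0946 and 21.3 and 7.3996 CPM with SGC0649 (adjusted p = 0.067, or 0.038 without SGC0946 replicate 3). Of the 15 measured neutrophil and mast cell markers, 9 were at 0 in every YFPneg library. The part of these markers in the results below was not tested. In bulk samples, fewer cells of a type and less RNA per cell cannot be told apart.

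SGC0946 changed 1065 of 12343 tested genes in YFPneg cells at an adjusted p under 0.05: 616 genes (4.99% of those tested) were higher and 449 (3.64%) were lower. Increases were the larger changes. At least 2-fold changes were seen in 247 genes that rose and 37 that fell, and at least 4-fold changes in 98 and 17. The median log2 fold change was 0.81 among genes called higher and -0.38 among genes called lower, against 0.01 over all genes tested. In 1057 of the 1065 called genes the libraries of the groups did not overlap, which was also true of 29.8% of all genes tested. Without SGC0946 replicate 3 the counts were 916 higher and 604 lower, of which 542 and 363 were the same genes. The counts depended more on the controls: they were 191 higher and 144 lower without SGC0649 replicate 2, 467 and 361 without SGC0649 replicate 1, and 161 and 38 when only the 5 YFPneg libraries were fitted. A core of 63 higher and 20 lower genes was called in the same direction in all 13 alternatives, which comprised other scalings, filters, tools, a replicate block and each library left out in turn. Where a gene is said below to hold in all alternatives, it belongs to that core.

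**Figure D1:**
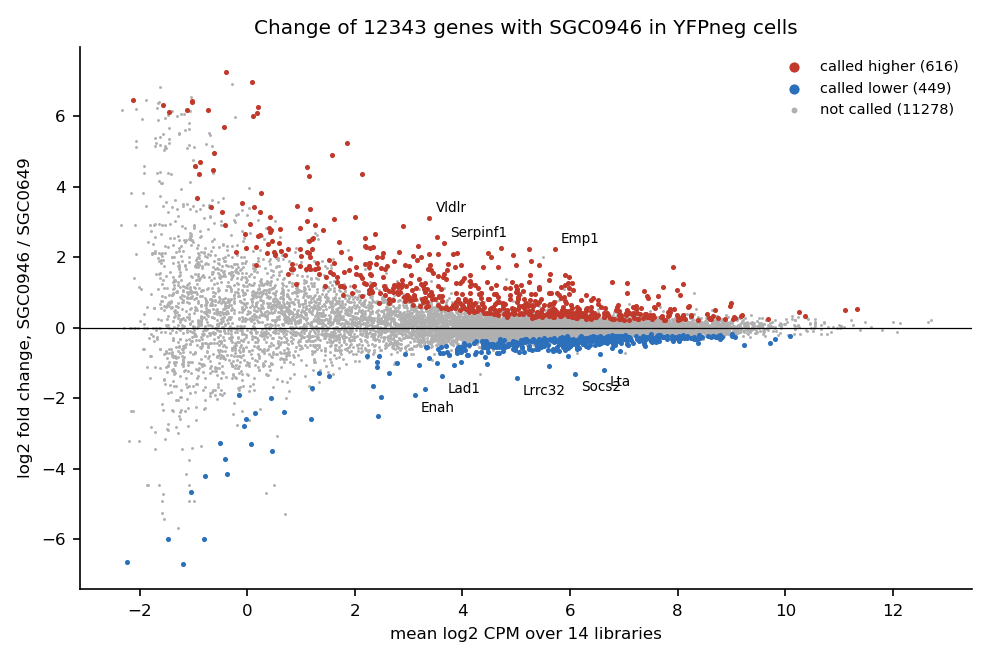
Each point is 1 of the 12343 genes tested in YFPneg cells, by its mean log2 CPM over the 14 libraries (x axis) and its log2 fold change, SGC0946 over SGC0649 (y axis). The 616 genes called higher (red) reach further from 0 than the 449 called lower (blue), and 8 genes with large changes are named.

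Vldlr, which encodes the very-low-density lipoprotein receptor, had the largest increase among genes of at least 3 mean log2 CPM with no overlap between groups. It had 14.1, 16.3 and 16.2 CPM with SGC0946, against 1.37 and 2.21 CPM with SGC0649 (log2 fold change 3.12, SE 0.30, adjusted p = 0.00018). The 3 treated libraries lay close together and far above both controls, and no count was found in naive cells. Emp1, a membrane protein gene of the claudin-like PMP22 family, had 52.1, 47.2 and 46.9 CPM with SGC0946 and 13.8 and 6.83 CPM with SGC0649 (2.24, SE 0.27). Itga7, the laminin-binding integrin alpha chain, had 57.6, 69.7 and 47.7 CPM against 15.4 and 8.74 CPM (2.27, SE 0.35). Serpinf1, which encodes the secreted factor PEDF, had 15.5, 17.7 and 9.41 CPM against 3.40 and 2.004 CPM (2.39, SE 0.39), and Uchl1, a deubiquitinase gene best known from neurons, had 5.61, 5.30 and 4.46 CPM against 1.27 and 0.771 CPM (2.33, SE 0.24). All 5 genes, and Stk32c (2.09), a kinase gene, hold in all alternatives.

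Other large increases were less even across libraries. Tnfrsf8, which encodes the activation antigen CD30, had 32.2, 22.03 and 9.07 CPM with SGC0946 and 6.30 and 2.67 CPM with SGC0649 (2.25, SE 0.41). Mt1, a metallothionein gene, had 16.7, 16.9 and 3.63 CPM with SGC0946 and 2.95 and 2.83 CPM with SGC0649 (2.12, SE 0.53). In both genes SGC0946 replicate 3 lay far below its fellow replicates and only just above the controls, and without it the log2 fold changes were 2.60 and 2.54. Upp1, a uridine phosphorylase gene, and Ermn, an actin-binding protein gene, rose by 2.10 and 2.08. The adjusted p without SGC0649 replicate 2 was 0.074 for Tnfrsf8, 0.14 for Mt1, 0.079 for Upp1 and 0.069 for Ermn. Without SGC0649 replicate 1 it was 0.11 for Mt1 and 0.088 for Ermn, and Mt1 had 0.059 and 0.060 without SGC0946 replicates 1 and 2.

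Among the genes with the smallest p outside that ranking, the transcription factor gene Maf had 28.8, 23.2 and 25.5 CPM with SGC0946 and 8.59 and 6.94 CPM with SGC0649 (1.74, SE 0.18, adjusted p = 0.00018). S100a6, a calcium-binding protein gene, had 26.4, 21.7 and 20.1 CPM against 7.11 and 5.04 CPM (1.91, SE 0.21). Slfn5, an interferon-inducible Schlafen gene, had 74.5, 75.9 and 66.3 CPM against 39.0 and 36.4 CPM (0.94, SE 0.10). In all 3 genes the treated libraries lay well above both controls, but genes were taken here only if the groups did not overlap. The receptor tyrosine kinase gene Axl rose by 1.29, the early response gene Ier3 by 1.49 and the tensin gene Tns4 by 1.32. These 6 genes hold in all alternatives.

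Decreases were fewer and smaller. Socs2, a suppressor of cytokine signalling that is itself induced by STAT5, had 46.4, 47.7 and 32.3 CPM with SGC0946 and 98.2 and 112 CPM with SGC0649 (-1.31, SE 0.15, adjusted p = 0.00024). Lrrc32, which encodes GARP, the latent TGF-beta docking receptor of activated regulatory T cells, had 21.5, 24.3 and 14.2 CPM with SGC0946 and 47.6 and 60.5 CPM with SGC0649 (-1.43, SE 0.22). Both controls lay above all 3 treated libraries in these 2 genes, which were taken only if the groups did not overlap. Socs2 and Lrrc32 hold in all alternatives. Notch2, a Notch receptor gene, had 100.3, 103 and 102 CPM with SGC0946 and 148 and 176 CPM with SGC0649 (-0.67, SE 0.09). Sh3bp5 (-0.56), Tmem64 (-0.45), the 7SK RNA stabiliser gene Larp7 (-0.60), the dUTPase gene Dut (-0.45) and Gprin3 (-0.75) fell as well. These 6 genes too hold in all alternatives. Lta, which encodes lymphotoxin alpha, had 51.6, 41.4 and 40.0 CPM with SGC0946 and 79.6 and 124 CPM with SGC0649 (-1.19, SE 0.25), with an adjusted p of 0.14 without SGC0649 replicate 2.

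Several further decreases were called in the full set of libraries but not when 1 control library was left out. Enah, an actin regulator gene, had 5.45, 2.18 and 0.907 CPM with SGC0946 and 10.1 and 12.2 CPM with SGC0649 (-1.92, SE 0.39). Scin, which encodes the actin-severing protein scinderin, had 4.81, 3.12 and 0.209 CPM with SGC0946 and 8.08 and 10.9 CPM with SGC0649 (-1.75, SE 0.50). Replicate 3 was the lowest treated library in both genes, and without it the values were -1.52 and -1.24. Lad1 (-1.37), the coronin gene Coro2a (-1.07), the myosin gene Myo6 (-1.05), the phospholipase gene Pla2g4f (-1.05), Cnksr3 (-0.99) and the aldo-keto reductase gene Akr1c18 (-0.98) were also called lower. Without SGC0649 replicate 2 the adjusted p was 0.067 for Enah, 0.19 for Scin, 0.33 for Lad1, 0.061 for Coro2a, 0.13 for Myo6, 0.064 for Pla2g4f, 0.17 for Cnksr3 and 0.14 for Akr1c18. Scin had 0.068 without SGC0649 replicate 1 and 0.060 without SGC0946 replicate 2. Log2 fold changes without SGC0649 replicate 2 were -1.77 for Enah, -1.52 for Scin, -0.80 for Lad1, -0.82 for Coro2a, -0.94 for Myo6, -0.87 for Pla2g4f, -0.68 for Cnksr3 and -0.84 for Akr1c18. Lad1 had adjusted p values of 0.066 and 0.086, and Akr1c18 had 0.052 and 0.055, without SGC0946 replicates 1 and 2.

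The promoter windows of the genes with the largest changes, among called genes of at least 3 mean log2 CPM with no overlap between groups and with a RefSeq window, are shown so that the sequences at both ends of the ranking can be compared. Each runs from 250 bases before to 50 after the annotated start (RefSeq, GRCm38.p6), and capitals mark the letters of any of 4 motifs searched on both strands: ISRE, GAAANNGAA, for interferon-stimulated response elements; GAS, TTCNNNGAA, for STAT sites; the T-box letters TCACACC; and the TATA-box letters TATAAA. The 3 genes called higher are Vldlr (chr19:27216234-27216533, plus strand), Serpinf1 (chr11:75422574-75422873, minus strand) and Uchl1 (chr5:66675871-66676170, plus strand).
Vldlr: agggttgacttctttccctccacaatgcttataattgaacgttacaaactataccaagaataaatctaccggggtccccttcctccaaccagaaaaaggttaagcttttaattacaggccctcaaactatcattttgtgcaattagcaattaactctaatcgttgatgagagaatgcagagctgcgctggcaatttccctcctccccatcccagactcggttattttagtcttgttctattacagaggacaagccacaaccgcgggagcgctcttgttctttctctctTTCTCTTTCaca
Serpinf1: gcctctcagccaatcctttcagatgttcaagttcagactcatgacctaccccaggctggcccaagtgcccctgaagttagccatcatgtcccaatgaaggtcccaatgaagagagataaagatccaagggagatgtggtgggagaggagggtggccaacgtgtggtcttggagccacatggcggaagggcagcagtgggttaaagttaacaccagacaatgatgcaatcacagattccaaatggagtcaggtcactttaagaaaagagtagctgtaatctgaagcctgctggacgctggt
Uchl1: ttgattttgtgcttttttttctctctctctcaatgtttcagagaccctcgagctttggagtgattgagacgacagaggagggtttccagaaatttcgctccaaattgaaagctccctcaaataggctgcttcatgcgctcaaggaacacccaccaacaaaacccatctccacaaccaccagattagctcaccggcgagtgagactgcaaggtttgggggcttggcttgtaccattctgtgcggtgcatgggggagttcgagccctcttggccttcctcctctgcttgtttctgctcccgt
The 3 genes called lower are Enah (chr1:182019931-182020230, minus strand), Scin (chr12:40134179-40134478, minus strand) and Lad1 (chr1:135818348-135818647, plus strand).
Enah: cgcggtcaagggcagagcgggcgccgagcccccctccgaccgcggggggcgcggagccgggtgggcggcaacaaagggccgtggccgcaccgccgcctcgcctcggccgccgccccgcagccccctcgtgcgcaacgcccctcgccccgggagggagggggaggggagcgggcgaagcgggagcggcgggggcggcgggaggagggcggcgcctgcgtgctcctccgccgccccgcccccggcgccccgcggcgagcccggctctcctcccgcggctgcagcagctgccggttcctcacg
Scin: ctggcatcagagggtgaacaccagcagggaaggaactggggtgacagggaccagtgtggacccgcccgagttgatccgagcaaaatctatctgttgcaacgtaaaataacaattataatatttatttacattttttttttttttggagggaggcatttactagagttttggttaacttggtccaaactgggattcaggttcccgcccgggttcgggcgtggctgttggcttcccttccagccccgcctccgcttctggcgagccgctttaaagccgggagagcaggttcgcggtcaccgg
Lad1: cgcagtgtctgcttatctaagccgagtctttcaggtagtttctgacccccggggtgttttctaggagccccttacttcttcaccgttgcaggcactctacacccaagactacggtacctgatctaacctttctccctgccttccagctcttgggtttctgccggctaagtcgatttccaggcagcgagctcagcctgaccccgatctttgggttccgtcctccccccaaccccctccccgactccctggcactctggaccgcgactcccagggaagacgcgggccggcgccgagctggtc
The Vldlr window held the ISRE letters in reverse complement just after the start, and the letters of the other motifs were in none of the 6 windows. Over the first window of each of 27025 symbols in the RefSeq table, 8.57% held the ISRE letters, 8.47% the GAS letters, 3.96% the T-box letters and 14.2% the TATA letters. Over the 9415 tested genes with a window the shares were 7.25%, 7.02%, 3.37% and 6.5003% in the same order. Only 76.0% of genes called higher, 77.7% of genes called lower and 76.3% of all genes tested had a window under the same symbol, so a comparison of promoter composition between these sets would be void and is not given.

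Interferon-gamma itself was not among the called genes. YFPneg cells of both groups were sorted after culture as negative for its reporter, so the gate limits what this result can show. Ifng had 114, 55.4 and 31.2 CPM in SGC0946 YFPneg cells and 42.2 and 25.4 CPM in SGC0649 YFPneg cells (log2 fold change 1.00, 95% interval 0.23 to 1.77, adjusted p = 0.094). The groups overlapped, since SGC0946 replicate 3 lay between the controls, and without that library the value was 1.33 with an adjusted p of 0.0094. Tbx21 had 278, 279 and 265 CPM with SGC0946 and 271 and 258 CPM with SGC0649 (0.05, adjusted p = 0.67). Eomes, the related T-box factor, had 66.2, 80.1 and 118 CPM with SGC0946 and 128 and 159 CPM with SGC0649 (-0.71, adjusted p = 0.082, or -0.97 and 0.018 without SGC0946 replicate 3).

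Of 30 tested genes of the Th1 programme, 10 were higher and 1 lower, with a median log2 fold change of 0.29. The member called lower was Lta. Effector chemokines made up 3 of the 10. Ccl4 had 201, 163 and 154 CPM with SGC0946 and 107 and 77.7 CPM with SGC0649 (0.91). Ccl5 had 19.8, 20.03 and 11.99 CPM against 4.32 and 3.96 CPM (2.07), and Ccl3 had 134, 83.1 and 81.4 CPM against 55.5 and 40.6 CPM (1.05). All 3 treated libraries exceeded both controls for each chemokine. They were the 3 of 9 tested effector chemokines that rose, and none fell. Ccl4 and Ccl5 hold in all alternatives, while Ccl3 had an adjusted p of 0.10 without SGC0649 replicate 2.

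Of 12 inflammatory chemokine receptors, 4 rose and none fell (median 0.86). Ccr2, the receptor for monocyte chemoattractants, had 38.6, 33.2 and 29.1 CPM with SGC0946 and 16.4 and 9.66 CPM with SGC0649 (1.37, SE 0.22), and Cxcr4 had 31.3, 28.4 and 33.7 CPM against 15.04 and 14.03 CPM (1.10). In both genes the treated libraries lay above the controls, and both hold in all alternatives. Ccr3, the eotaxin receptor, had 1.01, 1.12 and 1.39 CPM against 0 and 0.154 CPM. Its treated libraries held 57 counts against 3 in the controls, a 15.2-fold ratio with a 95% counting interval of 4.93 to 75.6, and its adjusted p was 0.066 without SGC0649 replicate 1. The Th1-associated receptor gene Cxcr3 had 10.3, 8.67 and 4.25 CPM with SGC0946 and 12.7 and 7.91 CPM with SGC0649, which was not called (-0.41, adjusted p = 0.41).

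Other Th1 genes called higher were the regulators Prdm1 (Blimp-1; 1.30), Id2 (0.58), Hlx (1.43) and Twist1 (2.24), the inhibitory receptor gene Havcr2 (TIM-3; 1.73) and Gzmb. The subunit genes of the IL-12 receptor, Il12rb1 (0.26, adjusted p = 0.10) and Il12rb2 (0.38, adjusted p = 0.066), its signal transducer gene Stat4 (0.32, adjusted p = 0.062), and Tnf (-0.24, adjusted p = 0.26) did not pass. The programme's count without SGC0649 replicate 2 was 3 higher and none lower, and the higher calls lost were those of Prdm1, Id2, Hlx, Twist1, Havcr2, Gzmb and Ccl3. Adjusted p values there were 0.13 for Prdm1, Id2, Hlx and Havcr2, 0.14 for Twist1 and 0.096 for Gzmb, at log2 fold changes of 1.07 for Prdm1, 1.42 for Hlx and 1.84 for Twist1. Hlx also had an adjusted p of 0.10 without SGC0649 replicate 1, and Twist1 0.41 in the fit on the 5 libraries. Without SGC0649 replicate 1 Gzmb had an adjusted p of 0.065. Without SGC0946 replicate 3 there were 14 higher and 2 lower.

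Of 22 tested cytotoxic and NK receptor genes, 6 rose and 2 fell (median 0.39). The perforin gene Prf1 had 53.6, 56.3 and 50.6 CPM with SGC0946 and 23.2 and 16.6 CPM with SGC0649 (1.43, SE 0.23), and holds in all alternatives. Gzmb, the most abundant granzyme transcript, had 2305, 2632 and 2365 CPM against 1702 and 1686 CPM (0.52). Treated libraries lay above both controls in each gene. Klrk1 (NKG2D; 1.78), Klrc1 (1.51), Cst7 (0.58) and the granule proteoglycan gene Srgn (0.34) also rose, whereas Gzmm (-1.99) and Gzmf were lower, at under 2 CPM in every YFPneg library. All 5 tested NK cell markers had positive log2 fold changes (1.12 to 5.36, median 1.70), and none was called by edgeR. Of the 5, 2 had an unadjusted p under 0.05, and DESeq2 called 1. The 8 measured NK cell markers summed to 11.1, 6.93 and 4.88 CPM with SGC0946 and 5.03 and 1.18 CPM with SGC0649, so the groups overlapped, and their part in the rise of Prf1, Gzmb, Klrk1 and Klrc1 was not tested. Klrc1 shares 38.6% of its 50-base words with other transcripts, chiefly Klrc2, so its reads may be split. The count was 1 higher and 1 lower without SGC0649 replicate 2, and 4 higher and none lower in the fit on the 5 libraries.

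Genes of helper fates other than Th1 were among the increases. Of 13 tested Th17 genes, 6 rose and none fell (median 0.26). Il21, a cytokine shared by Th17 and follicular helper cells, had 267, 216 and 257 CPM with SGC0946 and 127 and 76.9 CPM with SGC0649 (1.27, SE 0.19), and holds in all alternatives. Il1r1, the interleukin-1 receptor gene, had 3.21, 3.18 and 2.86 CPM against 0.406 and 0.462 CPM (2.81). None of the treated libraries reached down to the controls in either gene. Rora (0.69), Irf4 (0.26) and the aryl hydrocarbon receptor gene Ahr (1.19) were also called. The count was 1 in the fit on the 5 libraries and 2 without SGC0649 replicate 2. The adjusted p without that library was 0.096 for Il1r1, 0.14 for Rora, 0.14 for Irf4 and 0.26 for Ahr, and without SGC0649 replicate 1 it was 0.083 for Il1r1 and 0.058 for Rora.

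Of 16 tested Th2 genes, 6 rose and none fell (median 0.66): Maf, Il10, Il4ra, Nfil3, Il1rl1 and Areg. Il10, which encodes an anti-inflammatory cytokine, had 4.75, 3.00 and 2.02 CPM with SGC0946 and 1.07 and 0.668 CPM with SGC0649 (1.92, SE 0.43). The receptor chain gene Il4ra had 459, 491 and 444 CPM against 369 and 393 CPM (0.29). The Th2 effector cytokines themselves were near 0: Il4 did not exceed 0.641 CPM, Il5 0.624 CPM or Il13 0.855 CPM in any of the 5 libraries. Gata3, the Th2 master factor, had 34.7, 31.6 and 31.0 CPM with SGC0946 and 35.8 and 25.5 CPM with SGC0649, with the treated values inside the control range (0.08, adjusted p = 0.76). Maf alone was called without SGC0649 replicate 2, and 3 of the list without SGC0649 replicate 1. In the fit on the 5 libraries 2 of the list were called.

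Among 19 regulatory T cell genes, 3 were higher and 2 lower (median -0.09). Foxp3, the factor that defines regulatory T cells, had 16.9, 12.4 and 15.5 CPM with SGC0946 and 28.3 and 32.4 CPM with SGC0649 (-1.02, SE 0.23, adjusted p = 0.013). It fell along with Lrrc32, and its adjusted p was 0.096 without SGC0649 replicate 2. Part of the Foxp3 sequence, 14.7% of its 50-base words, is shared with other transcripts, chiefly Flicr. Entpd1, which encodes the ectonucleotidase CD39, had 13.9, 14.1 and 8.44 CPM against 3.20 and 2.42 CPM (2.12, SE 0.32), and Tigit, an inhibitory receptor gene, had 19.6, 21.7 and 26.8 CPM against 9.35 and 8.99 CPM (1.30). Both rose and hold in all alternatives. The regulatory T cell genes Il2ra (-0.17), Ctla4 (0.09) and Ikzf2 (-0.10) did not pass, with adjusted p of 0.46, 0.59 and 0.88. Among 14 follicular helper genes Il21 was higher and Lef1 lower (-0.26).

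**Figure D2:**
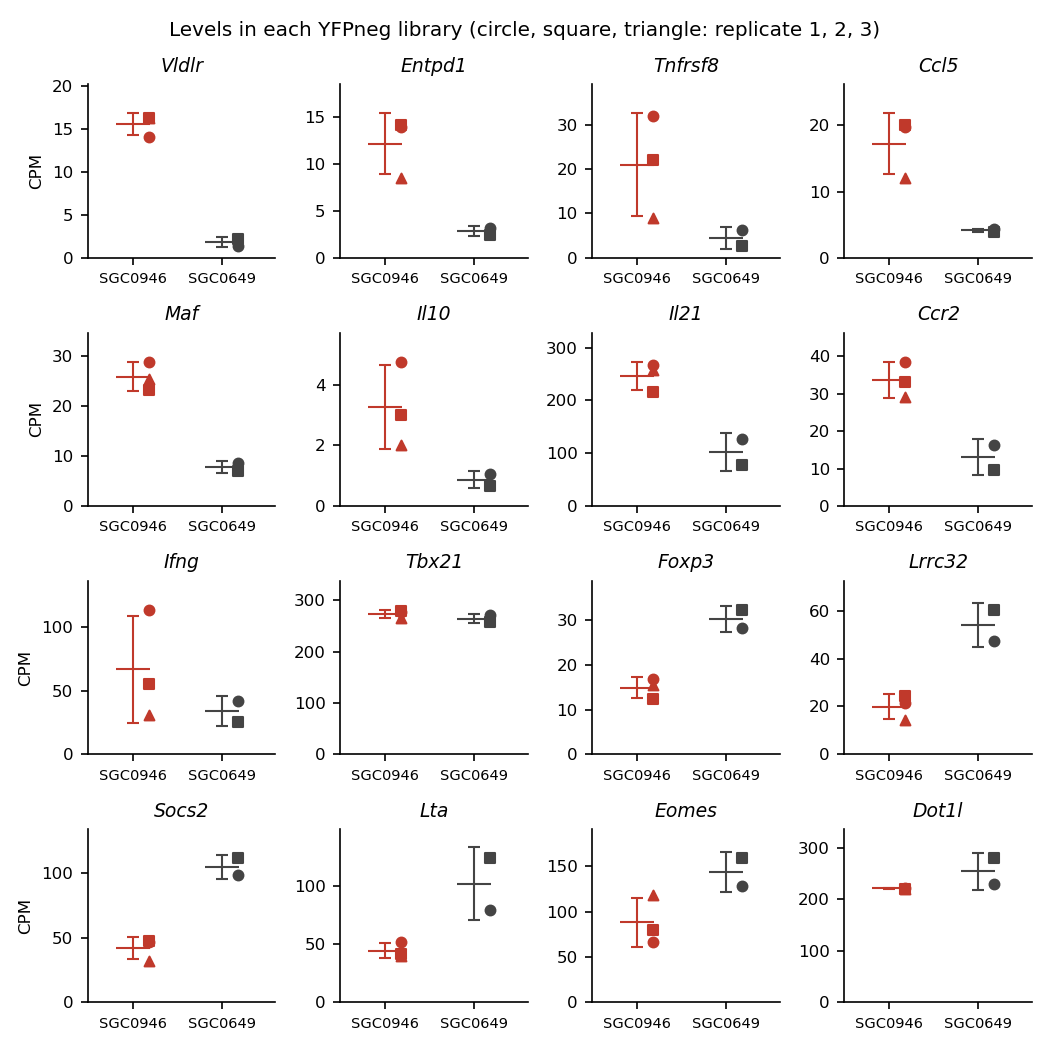
CPM of 16 genes in each YFPneg library, with SGC0946 on the left and SGC0649 on the right of each panel, and the group mean with its SD (n = 3 and n = 2). Vldlr, Entpd1, Maf and Ccr2 separate upward and Foxp3, Lrrc32 and Socs2 downward, while Ifng and Tbx21 overlap between groups.

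In a list of inhibitory receptors, some of their ligands, Entpd1 and Tox factors, 5 of 15 tested genes were higher and none lower (median 0.44). Besides Entpd1, Tigit and Havcr2 they were Lag3, with 320, 364 and 269 CPM with SGC0946 and 215 and 187 CPM with SGC0649 (0.66), and Lair1 (1.26). The PD-1 gene Pdcd1 was not called, with 56.9, 48.5 and 54.9 CPM against 46.6 and 46.9 CPM (0.19, adjusted p = 0.23). The adjusted p of Lag3 was 0.17 and that of Lair1 0.21 without SGC0649 replicate 2. Lag3 had 0.055 without SGC0649 replicate 1 and 0.059 without SGC0946 replicate 2. Entpd1 and Tigit remained called in each of these fits.

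Of 36 type I interferon response genes, 9 were called higher and none lower, and the median log2 fold change was 0.25. Besides Slfn5 these were Trim25, Trim30a, Oas2, Oas3, Oasl1, Dhx58, Usp18 and Stat2. Oas3, which encodes an RNA-sensing synthetase, had 166, 193 and 167 CPM with SGC0946 and 112 and 123 CPM with SGC0649 (0.58). Trim25, a ubiquitin ligase gene of the RIG-I pathway, had 230, 220 and 252 CPM against 173 and 186 CPM (0.38). The groups did not overlap in either gene. The count was 4 when either SGC0649 library was left out and 2 in the fit on the 5 libraries, and 8 without SGC0946 replicate 3, the library with the highest list level of the 5. Among 17 interferon-inducible GTPases, 1 was called, Gbp2, with 4908, 4869 and 5174 CPM against 3598 and 3494 CPM (0.49, and adjusted p 0.076 without SGC0649 replicate 2). None of 20 MHC class I and immunoproteasome genes passed by edgeR or DESeq2 (3 had an unadjusted p under 0.05). Among 10 MHC class II genes H2-Ab1 rose (1.12, and adjusted p 0.10 without SGC0649 replicate 2), and 3 were called without SGC0946 replicate 3.

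Genes of proliferation stood lower. All 37 tested S phase and replication genes had a negative log2 fold change, 18 were called lower and none higher (median -0.24). Pole, which encodes the leading-strand polymerase subunit, had 120, 127 and 100.3 CPM with SGC0946 and 148 and 164 CPM with SGC0649 (-0.43). Tyms, the thymidylate synthase gene, had 69.0, 73.6 and 55.0 CPM against 92.7 and 92.3 CPM (-0.49), and Mcm3, a helicase subunit gene, had 323, 358 and 323 CPM against 391 and 428 CPM (-0.29). Controls exceeded all treated libraries in each of the 3. Of the 18, Mcm2, Mcm3, Mcm5, Mcm6, Mcm7, Mcm10, Cdc45 and Gins2 act in the replicative helicase, its loading or its activation, and Lig1, Fen1, Pold1 and Pole copy or join DNA strands.

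Mitosis and spindle genes were lower in 8 of 35 tested cases and higher in none (median -0.22), among them Cdk1 (-0.35), Kif23 (-0.41), Ccnb2 (-0.35) and Top2a (-0.24). The proliferation marker gene Mki67 was not called, with 923, 901 and 922 CPM against 1114 and 981 CPM (adjusted p = 0.065). Of 14 D cyclin, kinase and inhibitor genes, Cdk4 (-0.37), Cdk6 (-0.42) and Cdkn2c (-0.67) were lower and none higher. Myc, the growth factor-responsive transcription factor, had 342, 346 and 326 CPM with SGC0946 and 407 and 434 CPM with SGC0649 (-0.32). Of 32 Myc and ribosome biogenesis genes 6 were lower, with a median of -0.25.

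These proliferation counts rested on the control libraries. Without SGC0649 replicate 2, 3 S phase genes, 8 mitosis genes and none of the Myc and ribosome biogenesis genes were called lower, and without SGC0649 replicate 1 the numbers were 13, 1 and 6. The fit on the 5 libraries called 1, 0 and 0. Without SGC0946 replicate 3 they were 23, 7 and 4. The list levels kept their sign in every treated library. The median difference of S phase genes from the mean of the controls, on the log2(CPM + 1) scale, was -0.28, -0.21 and -0.21 in SGC0946 replicates 1 to 3, against -0.03 and 0.03 in the SGC0649 libraries.

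Glycolysis and hypoxia-response genes moved the other way. All 29 tested members had a positive log2 fold change, 15 were called higher and none lower (median 0.28). Slc2a3, a glucose transporter gene, had 321, 375 and 279 CPM with SGC0946 and 162 and 128 CPM with SGC0649 (1.16, SE 0.22). Egln3, an oxygen-sensing hydroxylase gene induced in hypoxia, had 213, 289 and 207 CPM against 126 and 138 CPM (0.84), and Vegfa, the angiogenic factor gene, had 54.9, 70.2 and 56.8 CPM against 36.3 and 41.2 CPM (0.65). The groups were apart in each, and Egln3 and Vegfa hold in all alternatives. Enzyme genes rose less: Aldoc by 1.21, Pgk1 by 0.36, Pdk1 by 0.32, Gpi1 by 0.28, Hk1 by 0.29 and Pfkp by 0.26, and the lactate exporter gene Slc16a3 by 0.53. Ldha had 2171, 2195 and 1823 CPM against 1934 and 1945 CPM and was not called (adjusted p = 0.42, or 0.044 without SGC0946 replicate 3). Pgk1 shares 53.9% of its 50-base words with other transcripts. The count was 24 without SGC0946 replicate 3, 10 without SGC0649 replicate 1, 2 without SGC0649 replicate 2 and 6 in the fit on the 5 libraries.

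**Figure D3:**
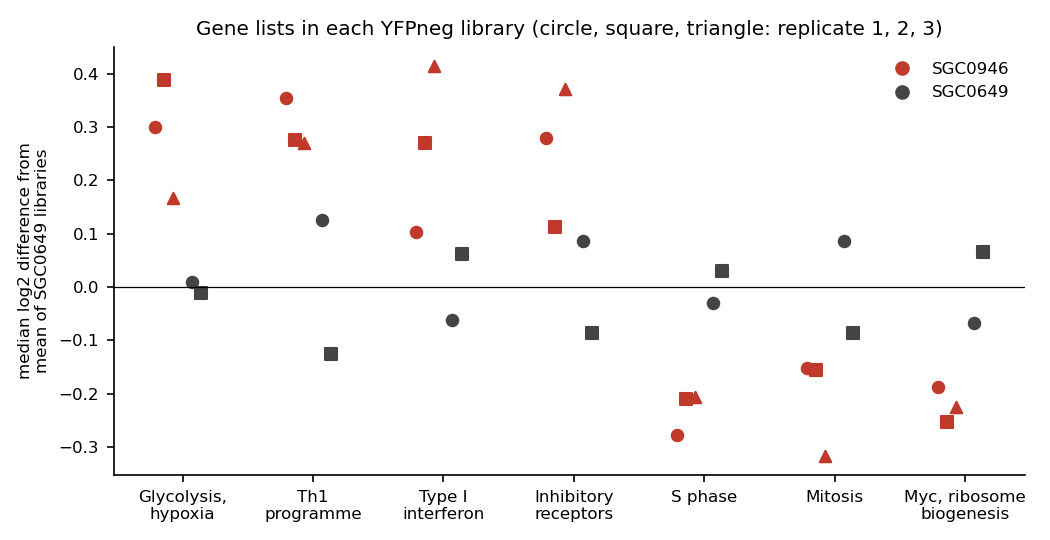
Median over the tested members of 7 gene lists of log2(CPM + 1) minus the mean of the SGC0649 libraries, for each YFPneg library (SGC0946 left, SGC0649 right). The 2 SGC0649 values of a list are mirror images because their mean is the zero line, and the 3 SGC0946 values lie on one side of it for each list shown.

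Actin cytoskeleton and adhesion genes were higher in 8 of 26 tested cases and lower in 1 (median 0.08). Ahnak, a giant scaffold protein gene, had 368, 363 and 263 CPM with SGC0946 and 169 and 110.0 CPM with SGC0649 (1.25, SE 0.18). S100a10, the annexin A2 partner, had 266, 290 and 244 CPM against 186 and 164 CPM (0.61), and Anxa2 itself had 515, 529 and 382 CPM against 329 and 250.05 CPM (0.72). All treated values exceeded the controls here, and Ahnak and S100a10 hold in all alternatives. Lgals3 (galectin-3; 1.31), S100a11 (0.98), Anxa1 (2.14) and Myo1f (1.79) also rose, and the membrane linker gene Ezr fell (-0.27). The count was 3 higher without SGC0649 replicate 2, where S100a11 had an adjusted p of 0.054 and Lgals3 0.062. Among the 15 tested integrin chains of a list that does not hold Itga7, described above (2.27), Itga3 (1.09) and Itga4 (0.36) rose. Neither Itga3 nor Itga4 was called without SGC0649 replicate 2, and 5 chains were called without SGC0946 replicate 3.

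Signalling and survival genes gave short lists of decreases. Of 18 genes of the IL-2 axis, Socs2, Bcl2 (-0.23) and the kinase gene Pim2 (-0.24) were lower and none higher. Bcl2l1, which encodes the survival protein Bcl-xL, had 33.2, 27.3 and 32.9 CPM with SGC0946 and 44.0 and 52.2 CPM with SGC0649 (-0.63), and with Bcl2 and Bcl2l13 (-0.26) made up the 3 of 18 BCL2 family genes that fell. Tnip3, an inhibitor of NF-kappaB signalling, had 12.7, 13.5 and 10.6 CPM against 23.2 and 18.9 CPM (-0.78), and the subunit gene Rel fell by 0.32 on the log2 scale; none of the 18 genes of that list rose. Of 24 TNF superfamily genes Tnfrsf8 and the death receptor gene Fas (0.31) rose and Lta fell. In a list of 27 p53 target genes and the p53 gene Trp53 itself, Fas rose and Plk2 (-0.80), Ckap2 (-0.34) and Trp53 (-0.18) fell. Without SGC0649 replicate 2 the counts were 1 lower for the IL-2 axis, the BCL2 family and the NF-kappaB list. In that fit the TNF superfamily and p53 lists had none in either direction.

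The T cell receptor response and naive-state lists were mixed. Of 25 early response genes Irf4 (0.26) and Egr1 (0.25) were higher and Myc and Rel lower, and none was called without SGC0649 replicate 2 or in the fit on the 5 libraries. Of 25 naive and quiescence genes Btg2 (0.39), Tob1 (0.51) and Slfn2 (0.24) were higher and Lef1 and Foxp1 (-0.26) lower, with none called without SGC0649 replicate 2 or in the fit on the 5 libraries. Tcf7 had 761, 756 and 914 CPM with SGC0946 and 749.8 and 719 CPM with SGC0649 and was not called (adjusted p = 0.23). Among 17 AP-1, BATF and IRF factors Batf3 (1.78) and Irf4 rose.

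Chromatin genes showed small changes. None of 12 genes of the DOT1L complex and its partners was called in either direction by edgeR or DESeq2 (3 had an unadjusted p under 0.05), and their log2 fold changes spanned -0.21 to 0.22. Leaving out SGC0649 replicate 1 gave 2 lower members, and leaving out SGC0946 replicate 3 gave 1. Dot1l had 222, 220.0 and 221 CPM with SGC0946 and 229 and 280 CPM with SGC0649 (-0.20, SE 0.07, adjusted p = 0.089, or 0.014 without SGC0649 replicate 1). The treated libraries were nearly equal and the 2 controls differed. Of 42 histone methyltransferase and demethylase genes, Kdm5b (0.55), Kdm7a (0.46), Kdm2a (0.23) and Kmt2c (0.38) were higher, and Suv39h1 (-0.37), Suv39h2 (-0.70) and Kdm2b (-0.33) lower. Kdm5b, which encodes a demethylase of lysine 4 of histone H3, had 236, 265 and 262 CPM against 185 and 162 CPM and holds in all alternatives. Suv39h1 and Suv39h2 encode lysine 9 methyltransferases. The list without SGC0649 replicate 2 had 1 higher and 2 lower, and in the fit on the 5 libraries 1 and none.

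Other metabolic and stress lists held few calls. A list of cholesterol and fatty acid synthesis genes also holds transporter genes such as Abca1. It was higher in 4 of 33 cases and lower in 1 (Hsd17b7, -0.55). The 4 were Scd1 (1.28), Abca1 (0.67), Scd2 (0.45) and Sc5d (0.35). Of 28 ATF4 response and amino acid genes Vldlr and Nupr1 (2.55) rose and the serine pathway genes Shmt1 (-0.49), Phgdh (-0.56) and Psat1 (-0.27) fell. Phgdh shares 47.8% of its 50-base words with other transcripts. Atf6 (0.45) alone rose among 23 endoplasmic reticulum stress genes, and Hspa4 (-0.23) and Hsf1 (-0.35) fell among 15 heat shock genes. None of 53 cytosolic ribosomal protein genes, 52 nuclear-encoded respiratory chain genes or 21 replication-dependent histone genes passed by edgeR. Their medians were 0.03, -0.07 and 0.13. At an unadjusted p under 0.05 there were 3, 12 and 0 genes, and DESeq2 called 2, 5 and 0. Over all 12343 genes tested these numbers were 3301 and 1615. Leaving out SGC0649 replicate 1 gave 4 lower respiratory chain genes.

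**Figure D4:**
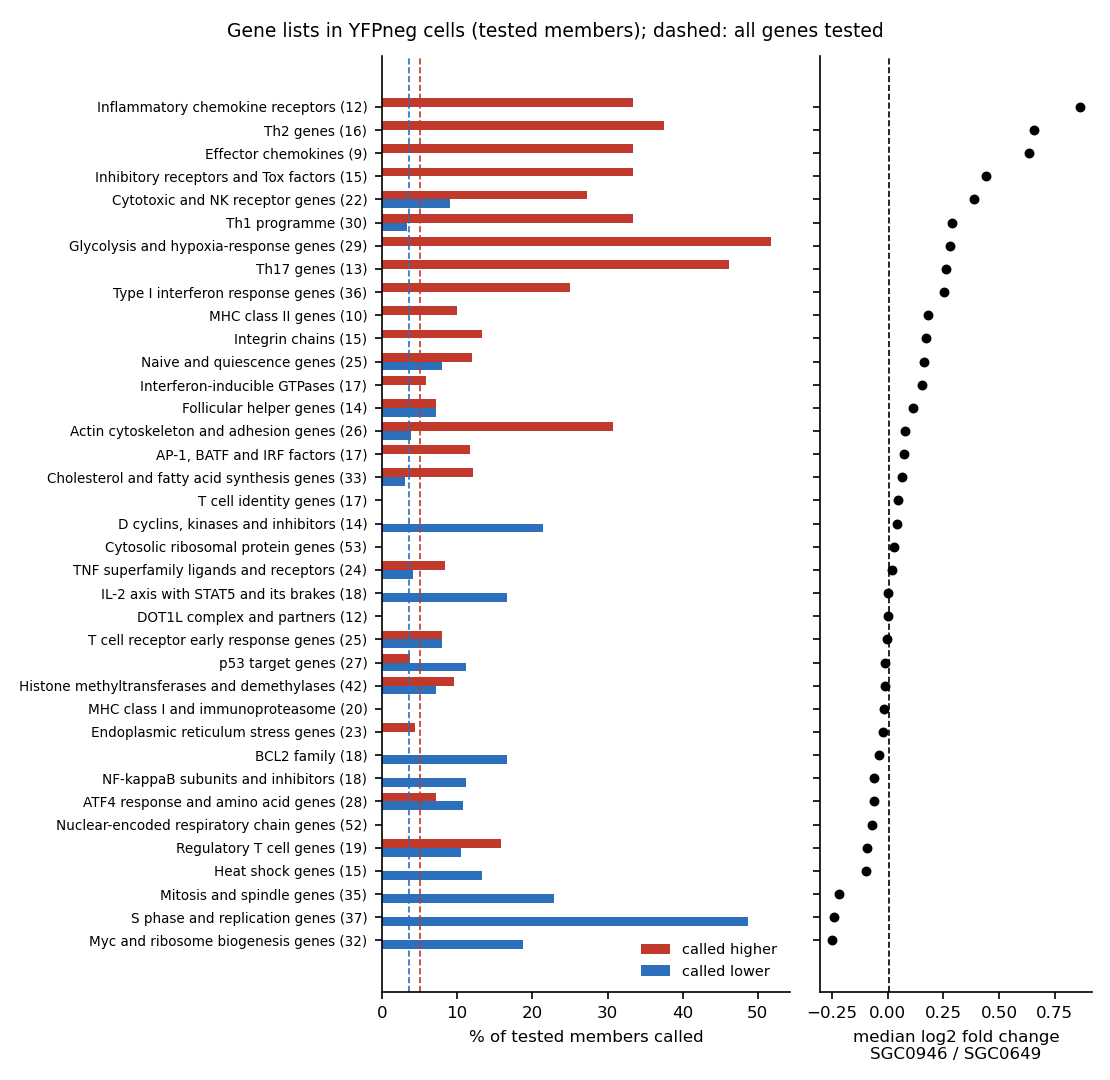
Share of tested members called higher (red) and lower (blue) in YFPneg cells for lists of at least 9 tested genes, with the number tested in brackets (left), and the median log2 fold change, SGC0946 over SGC0649 (right). Dashed lines give the values over all genes tested (4.99% higher, 3.64% lower, median 0.01), and the glycolysis list stands highest in red and the S phase list in blue.

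Some genes were nearly silent in YFPneg cells cultured with the control compound. In 25 genes called higher, the 2 SGC0649 libraries together held 3 counts or fewer, and 9 of the 25 were also called higher in YFPpos cells. The share called higher in YFPpos cells was 70.0% over all genes called higher in YFPneg cells and 12.1% over all genes tested. The 25 were picked for low control counts and could pass the filter only through other groups. Large ratios follow from that choice, and how many tested genes held so few control counts is not given here. Crispld2, a secreted protein gene, had 88 counts over the SGC0946 libraries against 2 over the SGC0649 libraries, a ratio of 35.1 with a 95% counting interval of 9.43 to 294. Its treated values were uneven at 3.37, 1.37 and 0.209 CPM. Chl1, a neural cell adhesion gene, had 68 counts against 2 (27.1-fold, interval 7.22 to 228), and the aminopeptidase gene Xpnpep2 had 48 against 1 (38.3-fold, interval 6.55 to 1543). Trim6, an ubiquitin ligase gene, had 47 counts against 0 and was at least 12.5-fold higher, with a floor of 3 counts over the control group. These intervals cover counting error only. Not every such gene was silent in naive cells, where Chl1 had a mean of 1.24 CPM, close to its 1.32 CPM with SGC0946. Mean naive levels of Crispld2, Xpnpep2 and Trim6 were 0.057, 0.077 and 0.020 CPM. Without SGC0649 replicate 2, the adjusted p was 0.098 for Crispld2 and 0.062 for Xpnpep2, and without SGC0649 replicate 1 it was 0.074 and 0.080. In the other direction 9 genes were nearly silent with SGC0946, among them Wnt3 with at most 0.107 CPM in SGC0946 libraries and 1.02 and 0.668 CPM in SGC0649 libraries. Its adjusted p of 0.033 became 0.050 to 0.11 when SGC0649 replicate 1 or 2 or SGC0946 replicate 2 or 3 was left out.

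Genes called higher had lower levels in the sorted naive libraries, which are not the population put into culture. Their median level in naive cells was 9.79 CPM, with 32.1% under 1 CPM, against 35.0 CPM and 7.35% for genes called lower and 29.8 CPM and 16.3% for all genes tested. Levels in the YFPneg cultures followed the same order. Their medians, over the mean of the compound groups, were 19.6 CPM for genes called higher, 62.2 CPM for genes called lower and 32.5 CPM for all. A low level particular to naive cells was therefore not shown. The median gene span in the GENCODE annotation was 27.9 kb for genes called higher, 23.4 kb for genes called lower and 23.03 kb for all. Spans over 100 kb made up 16.3%, 8.48% and 11.8%. These shares are given as a description, with no test.

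The same compounds were compared in YFPpos cells, with 3 libraries each and none shared with the YFPneg comparison. There 1490 genes (12.1%) were higher and 1934 (15.7%) lower. That split depended on scaling: increases made up 43.5% of calls with TMM factors and 55.1% with DESeq2 size factors, against 57.8% and 58.0% in YFPneg cells. Of the 616 genes higher in YFPneg cells, 431 (70.0%) were also higher in YFPpos cells and 3 lower, and those 431 were 28.9% of the YFPpos increases. Of the 449 lower genes, 267 (59.5%) were also lower and 2 higher, or 13.8% of the YFPpos decreases. Across the 12343 genes, which are not independent replicates, the log2 fold changes of the sorts had a Pearson r of 0.50 and a Spearman rho of 0.54. Vldlr rose in both (3.12 in YFPneg and 2.20 in YFPpos cells), as did Emp1 (2.24 and 2.42), Maf (1.74 and 2.18) and Entpd1 (2.12 and 2.01).

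The difference between the sorts was tested as an interaction. It was called in 142 genes: the effect was higher in YFPneg cells in 110 (0.891% of those tested) and lower in 32 (0.259%). Of the 142, 136 were called in YFPpos and 26 in YFPneg cells, and in 131 the absolute change was the larger in YFPpos cells. In 109 genes the interaction was positive and the YFPpos change negative. Tcf7, which encodes the memory-associated factor TCF-1, changed by 0.14 in YFPneg and by -0.78 in YFPpos cells (interaction 0.92, adjusted p = 0.00075). Il6st, the shared receptor chain of IL-6 family cytokines, had -0.13 and -0.82, and the orphan receptor gene Nr4a1 -0.13 and -0.98. All 3 interactions passed in each of 19 alternatives. Foxp3 fell in both sorts, by 1.02 on the log2 scale in YFPneg and by 2.81 in YFPpos cells, and Eomes had -0.71 and -2.46. Of the 1065 genes called in YFPneg cells, 1039 had no called interaction, which does not show that the sorts responded alike.

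The reverse case, a change in YFPneg cells with little in YFPpos cells, was rarer. Among the 26 genes called in YFPneg cells with a called interaction, 9 had the larger absolute change in YFPneg cells. Socs2 had -1.31 in YFPneg and -0.31 in YFPpos cells (interaction -1.003, adjusted p = 0.020). In YFPneg cells its levels were those given above, and in YFPpos cells it averaged 89.4 CPM with SGC0946 and 111 CPM with SGC0649. Kdm5b had 0.55 and 0.05 (interaction 0.50, adjusted p = 0.032). Racgap1, a cytokinesis gene chosen for mention after its values were seen, had -0.43 and 0.00 (adjusted p = 0.020). The interaction of Socs2 had an adjusted p of 0.053 without YFPneg SGC0649 replicate 1, 0.088 without YFPneg SGC0649 replicate 2 and 0.053 without YFPpos SGC0946 replicate 1. Kdm5b had 0.053 to 0.13 without YFPneg SGC0649 replicate 2, YFPpos SGC0649 replicate 1 or 2, or YFPpos SGC0946 replicate 1 or 3, and it did not pass in 3 other alternatives.

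**Figure D5:**
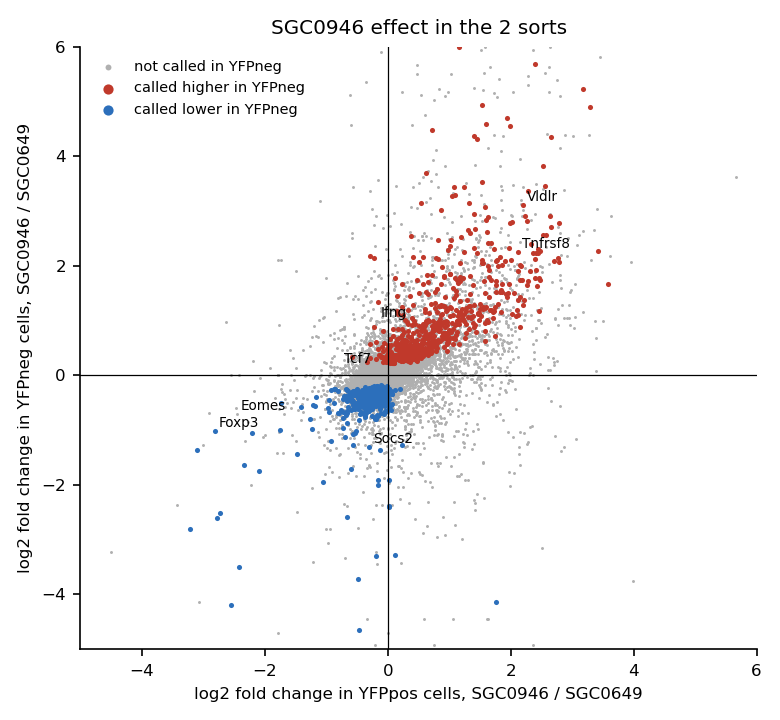
Log2 fold change, SGC0946 over SGC0649, of each gene in YFPneg cells (y axis) against that in YFPpos cells (x axis), coloured by its call in YFPneg cells, with 36 genes outside the axes. Most red points lie in the upper right and most blue points in the lower left, while Tcf7 lies near 0 on the y axis and Foxp3 and Eomes lie further left than down.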

How the data were processed

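Reads per gene were deposited by the authors as raw counts, made with featureCounts on GRCm38 per the submitters' processing notes, which also list edgeR and limma. Per the file headers, rows were protein-coding genes, and the table's title says that the reverse strand was counted. Of the aligner, the versions and the annotation release, the sources used here give none. Among 22048 rows were 47 names used for 103 IDs, so tests were run per ID.

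All other values were computed from those deposited counts in R 4.3.3. Genes were filtered with edgeR 4.0.16 (filterByExpr by group), libraries were scaled by TMM, and all 14 entered 1 quasi-likelihood model with a coefficient per group. P-values were adjusted by Benjamini-Hochberg over 12343 genes. Log2 fold changes carry a prior count of 0.125, and an SE is the absolute log2 fold change over the square root of F. DESeq2 1.42.0 and limma 3.58.1 (voom) were alternatives. The fit was also run on simulated counts, drawn with the same spread per gene in every group. That run could not check the calls under the wider spread between YFPneg libraries.

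The 5 libraries were taken by their labels, but the comparison and the 46 gene lists were settled on with earlier results of these data known. Named genes were a set of 8 (Ifng, Tbx21, Dot1l, Gata3, Foxp3, Eomes, Tcf7, Mki67), the 12 higher and 12 lower called genes with the largest change at 3 or more mean log2 CPM and no overlap, 6 and 6 more with the smallest p, up to 6 members of each list by p, genes nearly silent in 1 group, and 5 interaction genes. Other list members were named after their values were seen, and some members are not reported here. No libraries agreed within sampling noise. Total counts were 14486577 to 31614057 per library.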

Additional observations from a re-analysis of the deposited data

Results flagged for a closer look

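The SGC0946 effect differed between the sorts in 17 of the genes described, by the interaction test at an adjusted p under 0.05. Each value is the log2 fold change in YFPneg cells minus that in YFPpos cells. It was positive for Tcf7 (0.92), Il6st (0.69), Nr4a1 (0.85), Dgkd (0.61), Gramd1b (0.78), Foxp1 (0.67), Tmem64 (0.51), Egr1 (0.59), Sh3bp5 (0.63), Fas (0.59), Foxp3 (1.79), Eomes (1.75), Kdm5b (0.50), Pim2 (0.43) and Pla2g4f (1.16). It was negative for Socs2 (-1.003) and Cxcr4 (-1.02).

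Fas and Egr1 rose in YFPneg cells (0.31 and 0.25) and fell in YFPpos cells (-0.29 and -0.34). The effects in both sorts were negative for Foxp1, Tmem64, Sh3bp5, Dgkd, Pim2, Pla2g4f and Foxp3, and those of Cxcr4 were both positive (1.10 and 2.12). The interactions of Tcf7, Il6st, Nr4a1, Dgkd, Gramd1b, Foxp1, Sh3bp5 and Tmem64 passed in each of 19 alternatives. Those of Cxcr4, Pim2, Pla2g4f, Kdm5b, Eomes, Foxp3, Socs2, Egr1 and Fas did not pass in at least 1, and their highest adjusted p were 0.16, 0.13, 0.17, 0.13, 0.11, 0.11, 0.088, 0.053 and 0.058.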

How the results depend on the processing

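In YFPneg cells, the fit on the 5 YFPneg libraries called 161 genes higher and 38 lower, and DESeq2 called 703 lower. Leaving out 1 YFPneg library gave 191 to 916 higher and 144 to 616 lower. The replicate block gave 726 and 546. To look for pairing, the deviation of each library from its group mean was correlated across genes. Between same-numbered libraries of the compounds these deviations correlated at 0.085 in YFPneg and at 0.036 to 0.21 in YFPpos cells. The numbers are therefore not shown to pair samples across compounds. Between same-numbered YFPneg and YFPpos libraries of 1 compound the deviations correlated at 0.041 to 0.12, and between all differently numbered ones below 0. Deviations cancel within a group, so positive values of the former bring negative values of the latter, which add nothing. Pairing between the sorts was not tested. The replicate block gave 97 positive and 32 negative interactions. In YFPpos cells, the fit on 6 libraries called 2584 higher, and leaving 1 out gave 867 to 1489 higher and 1019 to 1960 lower. For the interaction, the fit on 11 libraries gave 40 and 16, DESeq2 180 and 121, no filter 57 lower, and leaving 1 library out 49 to 175 and 10 to 66. Positive interactions were 77.5% of calls with TMM and 67.2% with DESeq2 size factors.

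Of 152 called genes described, 99 missed the threshold without SGC0649 replicate 2, 47 without SGC0649 replicate 1, 87 in the fit on 5 libraries and 16 to 25 without an SGC0946 library, and at most 19 under any other alternative. None of the 152 changed sign. Of the 151 called members of all lists, 42 were called without SGC0649 replicate 2. Uncalled values that changed sign, with their range over left-out libraries, were Gata3 in YFPneg cells (-0.14 without SGC0649 replicate 2, to 0.34), the Dot1l interaction (-0.0192 without YFPneg SGC0649 replicate 1, to 0.27), and in YFPpos cells Enah (-0.17 without SGC0649 replicate 1, to 0.23, with -0.019 without SGC0946 replicate 1 and -0.0015 with the replicate block), Gprin3 (-0.26, to 0.0065 without SGC0649 replicate 3) and Ifng (-0.31, to 0.009997 without SGC0649 replicate 3). The cause of these shifts was not tested. With 2 control libraries, 1 library decides many calls.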
